A study of Mus musculus with 16 samples.

Results

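The comparison set tumours of mice given dendritic cells loaded with free DNA against tumours of mice given dendritic cells loaded with micronuclei, in MSI tumours alone. MSI stands for microsatellite instability, the state of cells that lack mismatch repair, and CIN for chromosomal instability. All 8 libraries of MSI tumours were taken, of 16 libraries in the series. The 4 free DNA libraries were MSI free DNA 1 and 2 and CIN free DNA 1 and 2, and the 4 micronuclei libraries were MSI micronuclei 1 and 2 and CIN micronuclei 1 and 2, where MSI or CIN names the cells that gave the DNA. Every mouse was a C57BL/6 animal that received MC38 cells, a mouse colon carcinoma line, in the wall of the descending colon on day 1. Dendritic cells grown from bone marrow were exposed for 30 minutes to 2 µg of the DNA with a lipofectamine, a lipid transfection reagent, and were injected into the peritoneal cavity on days 1, 6 and 12. The tumours were taken on day 15 and their bulk RNA was sequenced, and whether injected cells reached them was not tested. All 8 libraries therefore share the tumour line, the transfection reagent and the cell injections, and differ in the form and the source of the DNA. Per the series design, equal RNA of 3 biological replicates was combined. The labels do not say whether every library was made from a separate pool, so each p-value reflects how far the libraries vary, which can include technical variation. A single line stands for each tumour type, and tumours without DNA-loaded dendritic cells were not analysed here.

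The totals of the 8 libraries ran from 11880546 to 16257338 counts and were close in the 2 forms, and 17783 of 54532 genes passed the filter on low counts. On log2 CPM, where CPM is a gene's count scaled to a common library size, the leading principal component held 70.6% of the variance and separated replicate 1 from replicate 2 libraries, and the replicate number was a term in each fit. Colon epithelium markers were detected in all 8 libraries, but the mean log2 CPM of the 25 listed genes was 8.18 to 8.77 in replicate 2 libraries and 4.21 to 7.11 in replicate 1 libraries. CIN micronuclei 1 stood apart. It had the lowest colon level, and the 15 tested skeletal muscle genes averaged 4.99 log2 CPM there, against -0.61 to 1.32 in the other 7 libraries. Myh4, a fast muscle myosin, had 131 CPM in that library and 0 in the others. The results for the main lists and the narrower contrasts are given with and without it.

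Cells that find DNA in the cytosol answer through cGAS, an enzyme that binds DNA and makes a cyclic dinucleotide, and STING, the adaptor that this messenger activates. STING engages the kinase TBK1 and the factor IRF3, which switch on interferon beta. Type I interferon is then read by its receptor on neighbouring cells, where activated transcription factors bind the interferon-stimulated response element (ISRE) of target genes. Micronuclei enclose chromosome fragments in a membrane of their own and reach cGAS when that membrane breaks, whereas free cytosolic DNA lies open to it. In tumours this path is known for priming CD8 T cells through dendritic cells.

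Interferon-stimulated genes and monocyte-attracting chemokines made up most of the 12 higher genes named here by smallest p. Log2 fold changes over all genes reached 2.48, and these 12 were 1.22- to 1.55-fold higher in tumours of the free DNA arm. No gene passed the test across all genes, so these are differences in level and not calls. By the rule for named genes (protein-coding, a mean of at least 1 log2 CPM, the same direction in all 4 pairs of libraries matched on source and replicate number, smallest p), the 12 higher genes were Dhx58, Ifit1, Cmpk2, Herc6, Rsad2, Usp18, Trim30a, Ddx60, Ccl8, Armc1, Ccl12 and Ddx58. Of these 12, 8 belong to the list of type I interferon response genes and 2 to the list of CC chemokines. The 12 lower genes were Plekhg2, mt-Co3, Klhl24, Dusp1, Klk10, Chst1, Mt2, Cdk5r1, Zfp874b, Slc39a3, Camkk1 and BC024063, and 1 of them, Dusp1, stood in a list, that of immediate early genes. Since the rule asked for 1 direction in all 4 pairs, the order within pairs was fixed by the choice of these genes and is no finding for them. edgeR's quasi-likelihood test gave 0 genes (0%) at a Benjamini-Hochberg adjusted p under 0.05, and the lowest adjusted p over all 17783 genes was 0.9999. At an unadjusted p under 0.05 there were 204 genes (1.15%), of which 135 (0.759%) were higher and 69 (0.388%) lower. DESeq2 on the same design gave 0 and 207 genes. In bulk RNA, fewer cells of a type and less RNA per cell cannot be told apart.

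**Figure D1:**
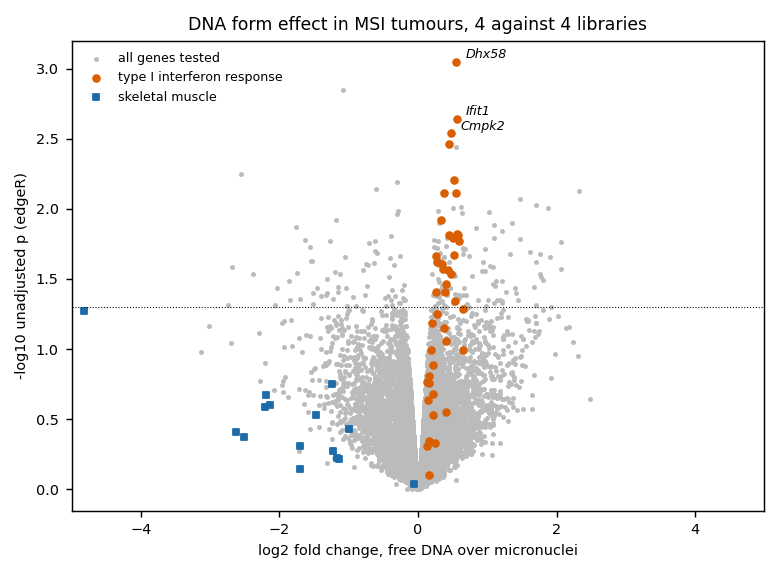
Each point is 1 of 17783 genes in MSI tumours, with the log2 fold change of free DNA over micronuclei on the x axis and -log10 of the unadjusted p from edgeR on the y axis. Type I interferon genes (circles) all lie right of 0, between 0.12 and 0.65, skeletal muscle genes (squares) lie left of it, and the dotted line marks an unadjusted p of 0.05.

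Sequence upstream of the interferon genes is shown because the ISRE is the element through which the type I response is read. The motif searched was a pair of GAAA runs with any 2 bases (NN) between them, or a pair of TTTC runs spaced in the same way, which is the motif on the other strand, in the 250 bases before each RefSeq start (RefSeq, build GRCm38.p6). Of the 44 type I interferon genes listed, 34 had an entry, and 15 of the 34 (44.1%) held a match, against 936 of all 27025 genes (3.46%). The match was not particular to that list, since 10 of the 17 interferon gamma response genes with an entry (58.8%) held it too. The motif TTCNNNGAA, which reads the same on both strands and is that of the gamma-activated site (GAS), was held by 5 of the 34 type I genes (14.7%), 10 of the 17 interferon gamma genes (58.8%) and 2197 of all genes (8.13%), and its matches may overlap those of the ISRE. Of the 12 higher named genes 9 had an entry and 4 of these (44.4%) held a match, and of the 12 lower named genes 9 had an entry and 0 held one. The stretches below run from 20 bases before the first match to 20 bases after the last, or to the start, with the matches in capitals. In Isg15 the 3 matches overlap.
Ifit1, chr19:34640765-34640833, strand +: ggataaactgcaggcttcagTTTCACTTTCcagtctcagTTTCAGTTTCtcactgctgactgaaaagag
Ifit3, chr19:34583353-34583436, strand +: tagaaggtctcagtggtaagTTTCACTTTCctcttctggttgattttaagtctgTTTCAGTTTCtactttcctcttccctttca
Rsad2, chr12:26456543-26456592, strand -: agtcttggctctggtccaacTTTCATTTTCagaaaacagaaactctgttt
Isg15, chr4:156200855-156200916, strand -: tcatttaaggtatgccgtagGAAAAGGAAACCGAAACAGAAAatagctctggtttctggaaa
Ddx60, chr8:61928014-61928086, strand +: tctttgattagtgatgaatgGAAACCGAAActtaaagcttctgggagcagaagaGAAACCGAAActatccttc
Trim30a, chr7:104465200-104465249, strand -: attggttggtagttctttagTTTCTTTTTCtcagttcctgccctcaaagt
Counted as the bases between a match and the start, those of Ifit1 lay 94 and 75 bases upstream, those of Ifit3 146 and 112, that of Rsad2 110, those of Isg15 68, 62 and 56, those of Ddx60 43 and 9, and that of Trim30a 26. Another Trim30a start with an entry had 0 matches in its 250 bases, and a gene was counted if any of its starts held one. Cmpk2, Herc6, Ddx58, Oasl2, Irf7, Ccl8 and Ccl12 had no match in this window, and the upstream sequences of Dhx58, Usp18 and Mx1 were not used here. A match describes letters and does not show binding.

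Some sensors of viral nucleic acid were among the 12 higher genes named by smallest p. Their fold changes were far from the largest, since log2 fold changes over all genes reached 2.48. Dhx58 (LGP2, a helicase that tunes RNA sensing; chr11:100694884-100704271, GRCm38) had 23.01 and 30.5 CPM with MSI free DNA and 26.9 and 32.8 CPM with CIN free DNA, against 15.7 and 19.7 CPM with MSI micronuclei and 16.9 and 25.3 CPM with CIN micronuclei. Its means were 28.3 ± 4.27 CPM in the free DNA arm and 19.4 ± 4.28 CPM in the micronuclei arm (SD, n = 4 each), and the log2 fold change was 0.56 ± 0.10 (SE). CIN micronuclei 2 lay above MSI free DNA 1, so the arms overlapped, and each free DNA library lay above its matched micronuclei library. The unadjusted p of Dhx58 was 0.000897 in edgeR's quasi-likelihood test, the smallest of the named genes. Ddx58 (RIG-I, the sensor of RNA ends) had 51.1 and 54.0 CPM with MSI free DNA and 57.3 and 45.2 CPM with CIN free DNA, against 43.8 and 40.3 CPM with MSI micronuclei and 38.9 and 41.6 CPM with CIN micronuclei. The 4 free DNA libraries all lay above the 4 micronuclei libraries for Ddx58, which 0.36% of all genes tested did, and its log2 fold change was 0.33 ± 0.10. Ifih1 (MDA5, the sensor of long double-stranded RNA) differed by 0.43 ± 0.16 log2, with replicate 2 libraries well above replicate 1 libraries in both arms. Zbp1, which binds nucleic acids in the Z conformation, had 116 and 106 CPM with MSI free DNA and 128 and 144 CPM with CIN free DNA, against 88.5 and 64.7 CPM with MSI micronuclei and 62.9 and 111 CPM with CIN micronuclei. Its log2 fold change was 0.59, and only CIN micronuclei 2 reached into the range of the free DNA libraries. Ddx60, a helicase linked to antiviral RNA sensing, had 35.8 and 51.9 CPM with MSI free DNA and 38.7 and 87.7 CPM with CIN free DNA, against 27.5 and 32.0 CPM with MSI micronuclei and 22.8 and 53.9 CPM with CIN micronuclei. It was higher in all 4 matched pairs, by 0.63 ± 0.18 log2.

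Antiviral effectors of the type I interferon list had positive log2 fold changes. Ifit1 (a protein that binds foreign RNA caps; chr19:34640871-34650009) had 40.0 and 51.9 CPM with MSI free DNA and 47.5 and 79.6 CPM with CIN free DNA, against 29.7 and 35.7 CPM with MSI micronuclei and 29.2 and 53.2 CPM with CIN micronuclei. The arms overlapped because CIN micronuclei 2 was high, and Ifit1 was higher in all 4 pairs with a log2 fold change of 0.56 ± 0.12. Rsad2 (viperin, a radical SAM enzyme that makes a chain-terminating nucleotide; chr12:26442746-26456452) had 17.5 and 18.7 CPM with MSI free DNA and 20.3 and 32.1 CPM with CIN free DNA, against 10.3 and 16.6 CPM with MSI micronuclei and 15.3 and 19.3 CPM with CIN micronuclei. Its log2 fold change was 0.52 ± 0.14, and CIN free DNA 2 was the highest library. Cmpk2, a mitochondrial nucleotide kinase whose gene lies beside Rsad2 on chromosome 12, had 24.2 and 30.3 CPM with MSI free DNA and 31.3 and 39.0 CPM with CIN free DNA, against 19.4 and 21.0 CPM with MSI micronuclei and 19.8 and 29.3 CPM with CIN micronuclei. For Cmpk2, CIN micronuclei 2 stood above the other micronuclei libraries and above MSI free DNA 1, and the log2 fold change was 0.48 ± 0.11. Oasl2, of the oligoadenylate synthetase family, had 154 and 194 CPM with MSI free DNA and 178 and 296 CPM with CIN free DNA, against 135 and 120 CPM with MSI micronuclei and 99.98 and 190.1 CPM with CIN micronuclei. It was higher in all 4 pairs by 0.57 ± 0.18 log2, and CIN free DNA 2 and CIN micronuclei 2 were the top library of their arm. Mx2 and Ifi44, both interferon-induced antiviral genes, did not overlap between the arms, at log2 fold changes of 0.57 ± 0.18 and 0.51 ± 0.16. Ifit3, the partner of Ifit1, differed by 0.41 ± 0.16. Mx1, a GTPase that blocks influenza viruses, differed by 0.22 ± 0.20 and was higher in 3 of the 4 pairs.

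Genes of the ISG15 system and of the response's own control showed the same sign. Usp18, which removes ISG15 from proteins and dampens the type I receptor, had 13.4 and 14.8 CPM with MSI free DNA and 17.2 and 14.8 CPM with CIN free DNA, against 10.2 and 10.3 CPM with MSI micronuclei and 9.12 and 11.6 CPM with CIN micronuclei. The 2 arms did not overlap for Usp18, and its log2 fold change was 0.54 ± 0.15. Herc6, which attaches ISG15 in mice, had 33.9 and 26.1 CPM with MSI free DNA and 44.6 and 34.4 CPM with CIN free DNA, against 23.5 and 22.2 CPM with MSI micronuclei and 27.9 and 26.8 CPM with CIN micronuclei. Herc6 was higher in each pair by 0.45 ± 0.11 log2, though MSI free DNA 2 lay below both CIN micronuclei libraries. Isg15 itself, a ubiquitin-like modifier, had 29.1 and 30.5 CPM with MSI free DNA and 42.8 and 46.8 CPM with CIN free DNA, against 27.7 and 19.1 CPM with MSI micronuclei and 23.1 and 35.5 CPM with CIN micronuclei. The MSI DNA replicate 1 pair was nearly level for Isg15, and the log2 fold change was 0.48 ± 0.18. Irf7, the factor that amplifies interferon production, had 67.6 and 134 CPM with MSI free DNA and 73.3 and 241 CPM with CIN free DNA, against 59.0 and 71.8 CPM with MSI micronuclei and 38.0 and 144 CPM with CIN micronuclei. Its difference, 0.65 ± 0.27 log2, had the highest estimate of the list but a wide error, with replicate 2 above replicate 1 in every group. Stat2, a signal carrier of the receptor, differed by 0.26 ± 0.09. Trim30a, a TRIM family protein, differed by 0.37 ± 0.10 and was higher in all 4 pairs. Members of the Ifit, Oas, Gbp and Trim30 families are near copies of each other, so counting could split their reads.

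**Figure D2:**
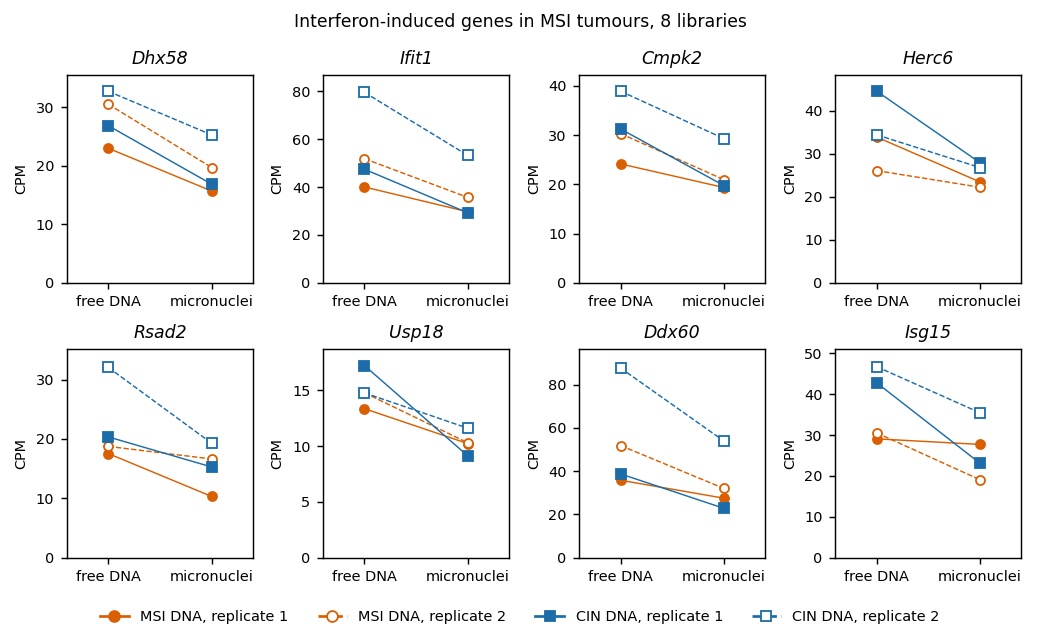
CPM of Dhx58, Ifit1, Cmpk2, Herc6, Rsad2, Usp18, Ddx60 and Isg15 in the 8 MSI tumour libraries, free DNA left and micronuclei right, with a line joining the libraries matched on DNA source and replicate number. Every line is lower at its micronuclei end, which the choice of genes fixed for all but Isg15, and in Usp18 the 4 free DNA points lie above all 4 micronuclei points.

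The type I interferon list was higher as a group in tumours of the free DNA arm. Of the 44 listed genes 43 passed the filter (Ifi44l did not), all 43 had a positive log2 fold change, and the median was 0.38 with a range of 0.12 to 0.65. Over all genes tested 50.2% were positive and the median was 0.000455. At an unadjusted p under 0.05, 24 of the 43 were higher, against 0.759% of all genes, and 0 passed the Benjamini-Hochberg adjustment in edgeR or in DESeq2. In all 4 pairs 28 of the 43 were higher, against 5.1% of all genes. For 4 of the 43 (Usp18, Ddx58, Mx2 and Ifi44) the 4 free DNA libraries lay above the 4 micronuclei libraries, against 0.36% of all genes. The genes of 1 response move together, so these counts are not separate observations. The mean log2 CPM of the 43 genes was 5.40 and 5.59 for MSI free DNA and 5.61 and 5.87 for CIN free DNA, against 5.20 and 5.14 for MSI micronuclei and 4.99 and 5.59 for CIN micronuclei. The lowest free DNA library lay below the highest micronuclei library, CIN micronuclei 2, and the means were 5.62 ± 0.19 in the free DNA arm and 5.23 ± 0.26 in the micronuclei arm (SD, n = 4 each). Within pairs the free DNA library was higher by 0.21 and 0.45 with MSI DNA and by 0.61 and 0.28 with CIN DNA. The widest of these differences came from CIN DNA replicate 1, whose micronuclei library was the one rich in muscle transcripts. Without CIN micronuclei 1, 42 of the 43 genes were higher, 13 at an unadjusted p under 0.05, and the median was 0.25. Without both libraries of that pair 43 of 43 were higher, 14 at that p, with a median of 0.27. Without MSI free DNA 1 the genes at that p were 12, without CIN free DNA 1 13, without MSI free DNA 2 15 and without CIN free DNA 2 12, and each of these was among the 24. In replicate 1 libraries alone 43 of 43 were higher with a median of 0.42, and in replicate 2 libraries alone 41 of 43 with a median of 0.34.

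**Figure D3:**
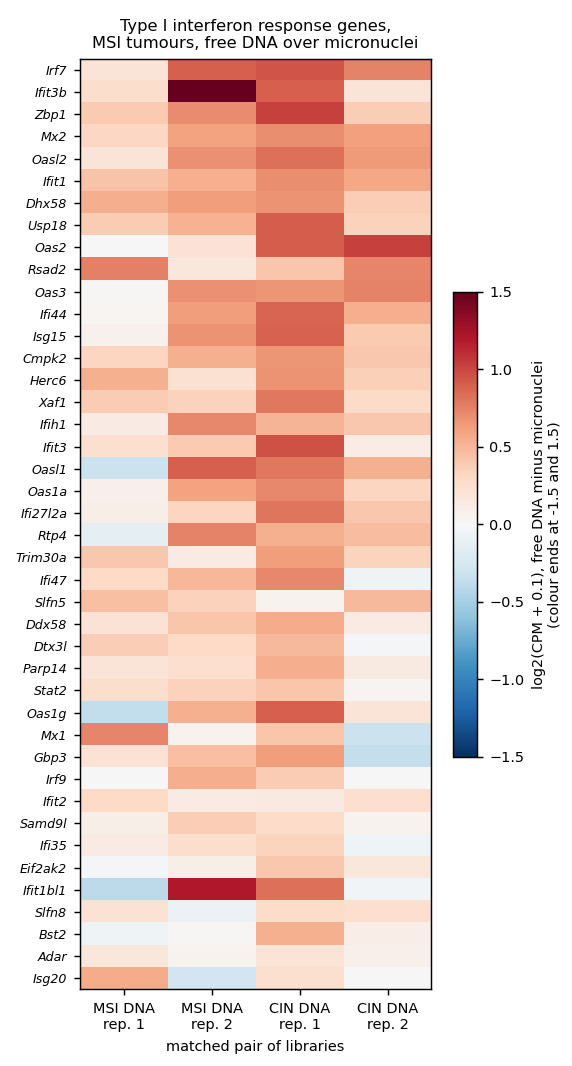
Heat map of the difference in log2(CPM + 0.1), free DNA minus micronuclei, for 42 of the 43 tested type I interferon genes (down the page) in the 4 pairs matched on DNA source and replicate number (across). Most cells are on the positive side in all pairs, and the MSI DNA replicate 1 and CIN DNA replicate 2 columns, whose list levels differed by 0.21 and 0.28, are paler than the other columns.

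Upstream of the response the genes were not ordered by arm. Of the 21 tested genes of cytosolic DNA sensing 10 were higher with free DNA and 11 lower, with a median log2 fold change of -0.02, and 1 of them, Zbp1, had an unadjusted p under 0.05. Mb21d1, which encodes cGAS, had 9.60 and 7.43 CPM with MSI free DNA and 8.24 and 6.90 CPM with CIN free DNA, against 7.28 and 9.30 CPM with MSI micronuclei and 10.2 and 7.01 CPM with CIN micronuclei. The arms overlapped throughout for Mb21d1, and its difference was -0.08 ± 0.20. Tmem173, which encodes STING, had 70.8 and 54.2 CPM with MSI free DNA and 71.7 and 50.3 CPM with CIN free DNA, against 59.7 and 47.4 CPM with MSI micronuclei and 60.02 and 53.8 CPM with CIN micronuclei. It was higher in 3 of the 4 pairs, by 0.15 ± 0.09 log2. Tbk1 differed by 0.01 ± 0.08, Irf3 by -0.02 ± 0.09 and Samhd1, which degrades deoxynucleotides, by 0.23 ± 0.10. The signs of Mb21d1, Tbk1 and Irf3 turned under some of the alternative fits.

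Interferon transcripts themselves were scarce in these tumours. Ifnb1 had 1 count over the 8 libraries together, and no listed interferon alpha or lambda gene passed the filter. Ifng, the type II interferon of T and NK cells, had 4.62 and 2.43 CPM with MSI free DNA and 3.79 and 4.74 CPM with CIN free DNA, against 2.21 and 1.19 CPM with MSI micronuclei and 4.50 and 3.74 CPM with CIN micronuclei. The MSI micronuclei libraries were the lowest for Ifng, the CIN micronuclei libraries lay within the free DNA range, and the difference was 0.54 ± 0.34 log2. The receptor chains Ifnar1, Ifnar2, Ifngr1 and Ifngr2 differed by -0.04 ± 0.11, -0.03 ± 0.12, 0.06 ± 0.20 and 0.07 ± 0.16. Ifngr1 and Ifngr2 followed the replicate number, as the colon epithelium genes did.

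Genes that respond to interferon gamma leaned the same way with less regularity. All 25 tested members had a positive log2 fold change, with a median of 0.24, but 2 had an unadjusted p under 0.05, against 0.759% of all genes, and 1 was higher in all 4 pairs, a share close to the 5.1% of all genes. Cxcl9, which draws T cells, had 497 and 358 CPM with MSI free DNA and 512 and 316 CPM with CIN free DNA, against 359 and 222 CPM with MSI micronuclei and 357 and 369 CPM with CIN micronuclei. It was higher in 3 of the 4 pairs, by 0.35 ± 0.15 log2, with the CIN DNA replicate 2 pair reversed. Gbp2, a guanylate-binding protein, had 952 and 522 CPM with MSI free DNA and 1102 and 497 CPM with CIN free DNA, against 765 and 422 CPM with MSI micronuclei and 679 and 682 CPM with CIN micronuclei. Replicate 1 libraries of the free DNA arm were the highest for Gbp2 and the difference was 0.20 ± 0.18. Cxcl10 differed by 0.27 ± 0.20, Iigp1 by 0.23 ± 0.13, Irf1 by 0.15 ± 0.14 and Gbp4 by 0.25 ± 0.24. The mean log2 CPM of the 25 genes was 6.82 and 6.32 for MSI free DNA and 6.93 and 6.32 for CIN free DNA, against 6.53 and 5.94 for MSI micronuclei and 6.40 and 6.51 for CIN micronuclei. Without CIN micronuclei 1 the median was 0.10 and 0 genes were at that p, and without CIN micronuclei 2 the median was 0.39. In replicate 1 libraries alone it was 0.42, and in replicate 2 libraries alone 0.095.

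Transcripts of MHC class I presentation genes stood slightly higher with free DNA, though unevenly over the pairs. Within pairs the mean log2 CPM of the list differed by 0.042 and 0.372 with MSI DNA and by 0.35 and 0.031 with CIN DNA. Of 21 tested genes 20 had a positive log2 fold change, with a median of 0.18, and 3 (H2-Q6, H2-Q7 and Psme2) had an unadjusted p under 0.05, against 0.759% of all genes. H2-Q7, a non-classical class I gene, had 59.5 and 64.6 CPM with MSI free DNA and 50.9 and 64.5 CPM with CIN free DNA, against 49.6 and 48.6 CPM with MSI micronuclei and 47.1 and 48.4 CPM with CIN micronuclei. The arms did not overlap, and the log2 fold change was 0.30 ± 0.09, with the limit that H2-Q6 and H2-Q7 are near copies whose reads could be split. Psme2, a proteasome activator subunit, differed by 0.35 ± 0.15. The abundant members differed less, with H2-K1 at 0.16 ± 0.12, B2m at 0.14 ± 0.07 and H2-D1 at 0.13 ± 0.11. The median was 0.10 without CIN micronuclei 1 and 0.30 without MSI micronuclei 1. With MSI DNA 20 of the 21 were positive, at a median of 0.19. With CIN DNA 19 were, at a median of 0.21, and 8 without CIN micronuclei 1, at a median of -0.06. Of 15 tested genes of MHC class II presentation and costimulation 11 were higher, with a median of 0.23 (0.20 without CIN micronuclei 1). Cd74, the invariant chain, differed by 0.29 ± 0.13, H2-Aa by 0.26 ± 0.15 and Cd80, a costimulatory ligand, by 0.59 ± 0.24. H2-Oa, which restrains peptide loading, was lower in all 4 pairs, by -0.86 ± 0.45, at 0.98 to 4.85 CPM.

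CC chemokines that attract monocytes were the other listed group among the 12 higher named genes. Of 18 tested CC chemokines 16 had a positive log2 fold change with a median of 0.33, and 4 (Ccl7, Ccl8, Ccl9 and Ccl12) had an unadjusted p under 0.05, against 0.759% of all genes. Ccl8 (chr11:82115185-82116799) had 58.5 and 33.0 CPM with MSI free DNA and 72.6 and 52.9 CPM with CIN free DNA, against 32.1 and 29.5 CPM with MSI micronuclei and 43.8 and 45.1 CPM with CIN micronuclei. Its difference was 0.50 ± 0.15, and MSI free DNA 2 was the one free DNA library inside the micronuclei range. Ccl12, its neighbour on chromosome 11, had 14.7 and 8.54 CPM with MSI free DNA and 14.5 and 13.7 CPM with CIN free DNA, against 6.95 and 7.59 CPM with MSI micronuclei and 10.6 and 7.87 CPM with CIN micronuclei. Again MSI free DNA 2 alone lay below the highest micronuclei library, and the log2 fold change was 0.63 ± 0.19. Ccl7, in the same cluster, differed by 0.34 ± 0.12 and was higher in all 4 pairs. Ccl9 differed by 0.30 ± 0.11, Ccl2 by 0.19 ± 0.11, Ccl6 by 0.37 ± 0.16 and Ccl5, a T cell and NK cell attractant, by 0.35 ± 0.22. The median of the list was 0.14 without MSI micronuclei 2, and 0.22 without CIN micronuclei 1, where 2 genes were at that p. Of 20 tested macrophage and monocyte genes 13 were higher, with a median of 0.09. Ly6c2, which marks inflammatory monocytes, had 13.1 and 18.0 CPM with MSI free DNA and 14.2 and 13.7 CPM with CIN free DNA, against 9.48 and 7.39 CPM with MSI micronuclei and 12.4 and 12.7 CPM with CIN micronuclei. The arms did not overlap for Ly6c2, whose difference was 0.51 ± 0.21. Lyz2 and C1qa, abundant macrophage genes, differed by 0.10 ± 0.17 and 0.13 ± 0.08.

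Inflammatory cytokines and neutrophil attractants differed in both directions. Of 23 tested 17 were positive, 0 had an unadjusted p under 0.05, and the median log2 fold change was 0.17. The median was -0.0022 without CIN free DNA 2 and 0.044 without CIN micronuclei 1. Cxcl1, a neutrophil attractant, had 10.1 and 4.23 CPM with MSI free DNA and 5.62 and 7.59 CPM with CIN free DNA, against 12.6 and 8.05 CPM with MSI micronuclei and 8.47 and 9.18 CPM with CIN micronuclei. It was lower in all 4 pairs, as 4.23% of all genes were, by -0.48 ± 0.28 log2. Il1b differed by 0.37 ± 0.19, Cxcl3 by 1.23 ± 0.53 at 0.26 to 4.04 CPM, and Il6 by -1.05 ± 0.64 at 0.07 to 1.65 CPM. Nfkbia, the inhibitor induced by NF-kB, differed by 0.07 ± 0.10, and Tnfaip3, another inhibitor of that path, by 0.13 ± 0.16. S100a8, a neutrophil protein, stood at 0.12 to 1.38 CPM.

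T cell genes were mostly positive over both sources, and the larger differences were those of the MSI DNA pairs. Of 22 tested 21 had a positive log2 fold change with a median of 0.23, 6 were higher in all 4 pairs, against 5.1% of all genes, and 1, Lck, had an unadjusted p under 0.05, against 0.759% of all genes. Within pairs the mean log2 CPM of the list differed by 0.66 and 0.455 with MSI DNA and by -0.185 and 0.133 with CIN DNA. Cd8a, the co-receptor of cytotoxic T cells, had 26.5 and 24.7 CPM with MSI free DNA and 25.0 and 29.3 CPM with CIN free DNA, against 21.9 and 12.9 CPM with MSI micronuclei and 23.9 and 22.4 CPM with CIN micronuclei. All 4 free DNA libraries lay above all 4 micronuclei libraries for Cd8a, MSI micronuclei 2 being far below the rest, and the difference was 0.41 ± 0.17. Lck, the kinase of the T cell receptor, differed by 0.40 ± 0.16 and was higher in all 4 pairs. Cd3e, a chain of the receptor complex, had 5.56 and 5.55 CPM with MSI free DNA and 4.76 and 7.18 CPM with CIN free DNA, against 6.21 and 4.02 CPM with MSI micronuclei and 7.81 and 5.44 CPM with CIN micronuclei. It was not ordered by arm, its means being 5.76 ± 1.01 CPM in the free DNA arm and 5.87 ± 1.58 CPM in the micronuclei arm (SD, n = 4 each). Of 18 tested cytotoxic and NK cell genes 16 were positive, with a median of 0.18 and 0 at an unadjusted p under 0.05. Gzmb, the granule protease, had 35.4 and 16.8 CPM with MSI free DNA and 36.7 and 20.6 CPM with CIN free DNA, against 20.5 and 12.5 CPM with MSI micronuclei and 22.9 and 26.3 CPM with CIN micronuclei. Gzmb was higher in 3 of the 4 pairs, by 0.37 ± 0.22, while Prf1, the pore-forming protein, differed by -0.14 ± 0.41. The T cell median was 0.14 without MSI micronuclei 2, 0.35 without CIN micronuclei 1 and 0.41 without CIN free DNA 1. Cd274, which encodes the checkpoint ligand PD-L1, was higher in all 4 pairs by 0.28 ± 0.14, among 10 positive of 19 tested checkpoint and regulatory T cell genes.

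Markers of cross-presenting dendritic cells and their precursors were low in the tumours. The dendritic cell list as a whole averaged 2.84 to 3.26 log2 CPM in the 8 libraries. Whether any of these transcripts came from the injected cells was not tested. Xcr1, Clec9a and Flt3, which mark cross-presenting dendritic cells and their precursors, stood at 0.33 to 3.10 CPM over the 8 libraries. Their differences were 0.51 ± 0.49, 0.39 ± 0.33 and 0.31 ± 0.44, each within 2 standard errors of 0. Of 17 tested genes of the dendritic cell list 10 were positive and 7 negative, with a median of 0.04 and a range of -0.79 to 0.51. With MSI DNA 11 of the 17 were positive at a median of 0.17, and with CIN DNA 7 at a median of -0.12. Itgax is given as 1 member of this list, outside the rules for named genes. Itgax (CD11c) had 35.4 and 27.9 CPM with MSI free DNA and 26.8 and 21.0 CPM with CIN free DNA, against 22.2 and 21.0 CPM with MSI micronuclei and 19.1 and 22.7 CPM with CIN micronuclei. It was higher in 3 of the 4 pairs, by 0.37 ± 0.15, and the CIN DNA replicate 2 pair was reversed. B and plasma cell genes had a median of -0.34 with 7 positive of 17 tested.

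Genes that stood lower in tumours of the free DNA arm were of mixed function, and Dusp1 was the only one of the 12 named that any list held. Klk10, a secreted serine protease of epithelia, had 1.59 and 1.60 CPM with MSI free DNA and 2.63 and 0.91 CPM with CIN free DNA, against 2.70 and 2.70 CPM with MSI micronuclei and 6.57 and 3.74 CPM with CIN micronuclei. The arms did not overlap for Klk10, as 0.349% of all genes tested did in this direction, and the difference was -1.19 ± 0.36. Klhl24, a substrate adaptor of a ubiquitin ligase, had 65.4 and 63.7 CPM with MSI free DNA and 70.3 and 62.7 CPM with CIN free DNA, against 75.4 and 83.3 CPM with MSI micronuclei and 80.2 and 79.4 CPM with CIN micronuclei. Its arms did not overlap either, with little spread within each and a difference of -0.28 ± 0.08. Slc39a3, a zinc transporter, was the other without overlap, at -0.26 ± 0.09. Plekhg2, a regulator of small GTPases, had 62.4 and 46.9 CPM with MSI free DNA and 64.8 and 45.2 CPM with CIN free DNA, against 72.8 and 61.2 CPM with MSI micronuclei and 77.4 and 57.9 CPM with CIN micronuclei. Replicate 1 exceeded replicate 2 in both arms for Plekhg2, and the difference was -0.31 ± 0.08. The mitochondrial gene mt-Co3 had 43.1 and 92.9 CPM with MSI free DNA and 44.5 and 76.7 CPM with CIN free DNA, against 45.8 and 162 CPM with MSI micronuclei and 61.0 and 161 CPM with CIN micronuclei. The gap lay mainly in replicate 2 libraries, whose share of mitochondrial counts was 2.29% to 3.68%, against 1.44% to 1.71% in replicate 1 libraries. In replicate 2 the share was 2.29% with MSI micronuclei and 3.19% with MSI free DNA, and 3.68% with CIN micronuclei and 2.88% with CIN free DNA. Its means were 2.30% in the free DNA arm and 2.29% in the micronuclei arm, and its part in the mt-Co3 result was not tested. Mt2, a metallothionein that binds zinc, differed by -0.62 ± 0.20, and Dusp1, a phosphatase of MAP kinases, by -0.30. Mki67, a marker of cycling cells, was lower in all 4 pairs by -0.22 ± 0.12. Of 20 tested cell cycle genes 18 were negative, with a median of -0.07, while 50.2% of all genes were positive. Without CIN micronuclei 1, 7 of the 20 were positive and the median was -0.035.

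Tissue lists were set beside these results because tumour pieces can carry host tissue. Of 25 colon epithelium genes 17 were positive with a median of 0.09 and 0 at an unadjusted p under 0.05 (7 and -0.20 without CIN micronuclei 1), and of 17 smooth muscle genes 7 were positive with a median of -0.10. Epcam, an epithelial adhesion protein, had 302 and 1303 CPM with MSI free DNA and 107 and 1272 CPM with CIN free DNA, against 421 and 763 CPM with MSI micronuclei and 64.5 and 1403 CPM with CIN micronuclei. Replicate 2 libraries were the higher in each group for Epcam, and the arms were not ordered. Other host tissue lists differed in both directions. Mesothelium genes were positive in 7 of 7 at a median of 0.66 (6 and 0.36 without CIN micronuclei 1). Erythroid genes were in 4 of 5 at 0.68 (4 and 0.61), and pancreas and liver genes in 3 of 3 at 0.38 (2 and 0.17). Fibroblast and matrix genes were positive in 7 of 18 at -0.09, and endothelium genes in 5 of 16 at -0.10. The part of these lists in the interferon differences was not tested. All 15 tested skeletal muscle genes were negative, with a median of -1.70, and 0 had an unadjusted p under 0.05. That median rests on CIN micronuclei 1, where Acta1 (skeletal actin) had 203 CPM and Atp2a1 (the calcium pump of fast muscle) 108 CPM, against at most 15.9 and 2.36 CPM in the other 7 libraries, and it was -0.03 without that library. With the skeletal muscle level as a further term, 42 of 43 type I interferon genes were positive, 14 at an unadjusted p under 0.05, with a median of 0.29. With the colon epithelium level in place of the replicate number it was 43 of 43, 30 at that p, with a median of 0.34.

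**Figure D4:**
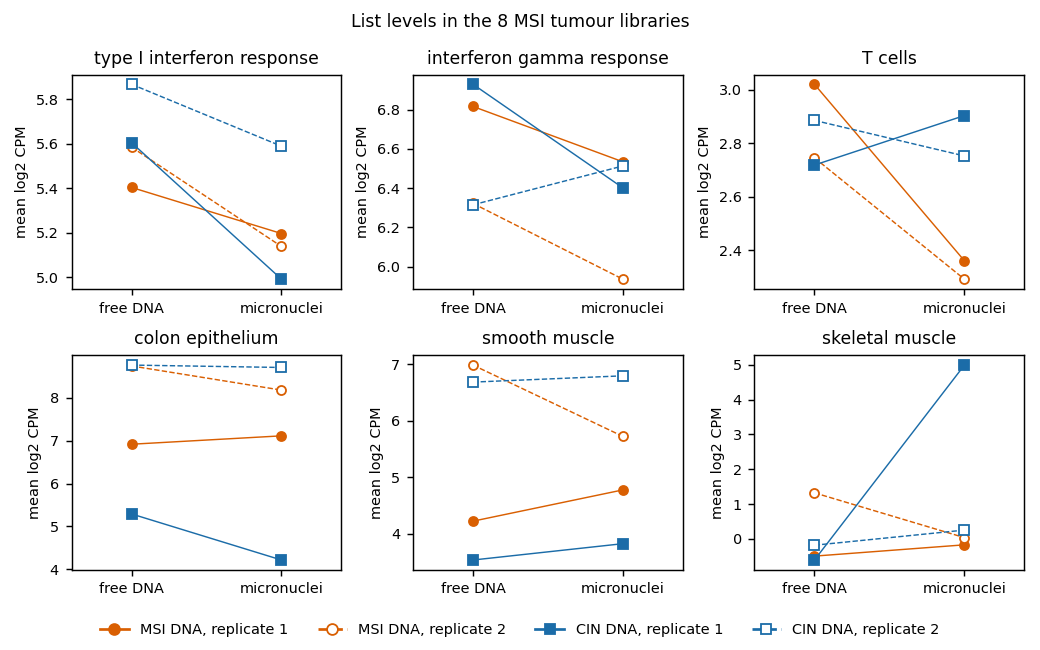
Mean log2 CPM of 6 gene lists in the 8 libraries, free DNA left and micronuclei right, each point a library and each line a pair matched on DNA source and replicate number. The type I interferon level is lower at the micronuclei end of all 4 lines, the colon and smooth muscle levels separate replicate 2 from replicate 1 libraries, and skeletal muscle is high in CIN micronuclei 1 alone.

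The form comparison was then read within each DNA source. In tumours of mice given MSI DNA, T cell and type I interferon genes stood higher with free DNA, and in those given CIN DNA type I interferon genes did and T cell genes did not. Neither contrast had a gene past the Benjamini-Hochberg adjusted threshold in edgeR (0% each). With MSI DNA 266 genes (1.5%) had an unadjusted p under 0.05, 160 higher (0.9%) and 106 lower (0.596%), and with CIN DNA 132 genes (0.742%), 65 higher (0.366%) and 67 lower (0.377%). Both contrasts share 1 estimate of spread and use different libraries. Of the type I interferon genes 42 of 43 were positive with MSI DNA (3 at that p, median 0.31), against 49.8% of all genes, and 43 of 43 with CIN DNA (14 at that p, median 0.48), against 51.8% of all genes. The test of the difference between the sources gave 0 genes at an adjusted p under 0.05 and 258 (1.45%) at an unadjusted one, 141 with a larger effect with MSI DNA (0.793%) and 117 with a smaller one (0.658%). Of the 43 type I genes 12 had a larger effect with MSI DNA, against 49% of all genes, the median difference was -0.13, and 1, Oas2, had an unadjusted p under 0.05. These values turn on CIN micronuclei 1. Without it CIN micronuclei 2 is the lone micronuclei library with CIN DNA, assumed to vary like the rest, and 35 of the 43 type I genes were positive with CIN DNA, 1 at an unadjusted p under 0.05 against 1.63% of all genes, with a median of 0.22. The effect was then larger with MSI DNA for 28 of the 43, with a median difference of 0.08, so the sign of the difference between sources turned. Interferon gamma genes with CIN DNA were positive in 23 of 25 with all libraries, at a median of 0.14, and in 4 of 25 without CIN micronuclei 1, at a median of -0.17. With MSI DNA 25 of 25 were positive, at a median of 0.31. Their effect was larger with MSI DNA for 21 of the 25, by a median of 0.10. Without CIN micronuclei 1 it was larger for 24 of the 25, by a median of 0.47.

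Oas2, an oligoadenylate synthetase, had 57.2 and 74.8 CPM with CIN free DNA against 30.4 and 36.7 CPM with CIN micronuclei. With MSI DNA it had 46.5 and 41.2 CPM in the free form against 46.7 and 35.3 CPM in micronuclei. The CIN DNA libraries were thus parted by form and the MSI DNA libraries were not, with log2 fold changes of 0.10 ± 0.22 with MSI DNA and 0.98 ± 0.22 with CIN DNA and a difference of -0.88 ± 0.31 between them. Without CIN micronuclei 1 the Oas2 difference was -0.71 ± 0.35, no longer at an unadjusted p under 0.05. All 22 tested T cell genes were positive with MSI DNA, with a median of 0.50, and 3 (Lck, Trbc2 and Cd28) had an unadjusted p under 0.05. With CIN DNA 12 of the 22 were positive, with a median of 0.0044 and 0 at that p. The mean log2 CPM of the 22 genes was 3.02 and 2.75 for MSI free DNA and 2.36 and 2.29 for MSI micronuclei, while CIN free DNA stood at 2.72 and 2.89 and CIN micronuclei at 2.90 and 2.75. The 2 MSI micronuclei libraries were the lowest of the 8. The effect was larger with MSI DNA for 21 of the 22, by a median of 0.55, and 1 of them, Cd5, had an unadjusted p under 0.05 in the test of the difference, which 0.793% of all genes had in that direction. Without CIN micronuclei 1 the T cell medians were 0.51 with MSI DNA and 0.06 with CIN DNA, the difference was positive for 20 of the 22 at a median of 0.52, and 0 genes, Cd5 included, were at that p. Ms4a4b, a membrane protein of T cells, had 15.7 and 15.4 CPM with MSI free DNA against 8.26 and 7.06 CPM with MSI micronuclei. With CIN DNA it had 13.2 and 13.9 CPM in the free form against 17.2 and 17.2 CPM in micronuclei. The order of the forms was opposite in the 2 sources for Ms4a4b, at 1.02 log2 with MSI DNA and -0.35 with CIN DNA. Spp1, which encodes osteopontin, showed the other order, with 177 and 97.9 CPM with MSI free DNA against 241 and 167 CPM with MSI micronuclei, and 245 and 166 CPM with CIN free DNA against 215 and 126 CPM with CIN micronuclei. Its log2 fold changes were -0.61 with MSI DNA and 0.29 with CIN DNA, and replicate 1 was the higher in each group. The other genes named in these contrasts by the same kind of rule included, with MSI DNA, Aplnr (the apelin receptor) at 1.23 log2 and Slc7a8 (an amino acid transporter) at 0.59, and Krt14 (a basal keratin) at -2.22. With CIN DNA they included Bmper (a regulator of BMP signalling) at 2.30, Atg10 (an autophagy enzyme) at 0.94 and Hspa1a (a heat shock protein) at -1.32. Rpl17, a ribosomal protein gene that shares reads with pseudogene copies, stood at -0.75 with CIN DNA and is uncertain. For MHC class II genes 12 of 15 were positive with MSI DNA, with a median of 0.38, and 8 of 15 with CIN DNA, with a median of 0.04 (3 of 15 and -0.19 without CIN micronuclei 1). Skeletal muscle genes were positive in 13 of 15 with MSI DNA, at a median of 0.66, and in 0 of 15 with CIN DNA, at a median of -4.68 (7 of 15 and -0.35 without CIN micronuclei 1).

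**Figure D5:**
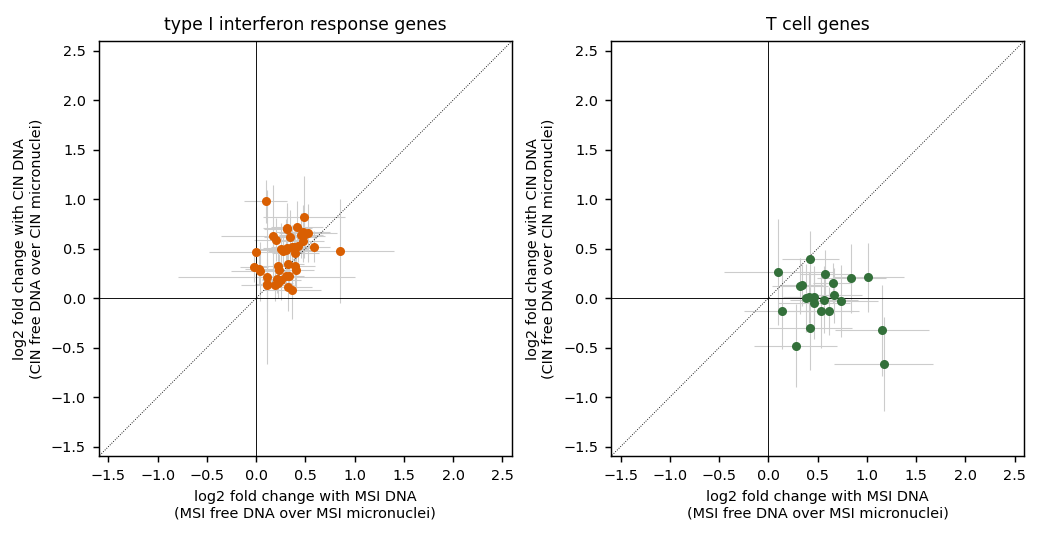
Log2 fold change of free DNA over micronuclei with MSI DNA (x axis) and with CIN DNA (y axis) for the tested type I interferon genes and T cell genes in MSI tumours. Of the type I genes 42 of 43 lie in the upper right, with medians of 0.31 and 0.48 (0.32 and 0.22 without CIN micronuclei 1), and the T cell genes lie right of 0 on the x axis and around 0 on the y axis, with medians of 0.50 and 0.0044.

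The form effect was also set against that in CIN tumours, the other 8 libraries of the series. Host tissue varied there too. Skeletal muscle genes averaged 3.82 and 3.45 log2 CPM in MSI micronuclei 1 and 2 of the CIN tumours. They averaged 3.02 in MSI free DNA 2, 3.74 in CIN free DNA 2 and at most 0.62 in the rest. Colon epithelium stood at 2.21 in MSI micronuclei 1 of the CIN tumours, against 6.43 to 8.23 in the others. The part of these levels in the values below was not tested. Of the 43 type I interferon genes 43 were positive in MSI tumours and 35 in CIN tumours, against 52.2% of all genes there, with 1 at an unadjusted p under 0.05 and a median of 0.10. In CIN tumours 0 of 18777 genes (0%) passed the Benjamini-Hochberg adjusted threshold in edgeR and 196 (1.04%) had an unadjusted p under 0.05, 115 of them higher (0.612%) and 81 lower (0.431%). The test of the difference, MSI minus CIN tumours, likewise gave 0 adjusted calls and 211 genes (1.12%) at an unadjusted p under 0.05, 83 positive (0.442%) and 128 negative (0.682%). In that test 38 of the 43 type I genes were positive with a median of 0.25, 1 of them at an unadjusted p under 0.05, while 46.3% of all genes were positive with a median of -0.02. Without CIN micronuclei 1 of the MSI tumours 34 of the 43 were positive with a median of 0.16, and 0 were at that p. Dhx58 differed between forms by 0.17 ± 0.17 in CIN tumours and Ifit1 by 0.30 ± 0.16. Usp18 differed there by 0.01 ± 0.19 and Rsad2 by 0.55 ± 0.19, beside 0.54 ± 0.15 and 0.52 ± 0.14 in MSI tumours alone. For cytokines the estimates were mostly larger in CIN tumours, with 19 of 24 tested positive and 8 at an unadjusted p under 0.05 there (median 0.39), and 16 of 24 negative in the difference, 4 at that p. Cxcl1 differed by 2.06 ± 0.60 in CIN tumours, and Socs3, the feedback inhibitor of IL-6 signalling, by 0.45 ± 0.09, against -0.17 ± 0.10 in MSI tumours. The difference for Socs3 was -0.63, and it passed the adjusted threshold in DESeq2 but not in edgeR. Tnfrsf9, a costimulatory receptor, was among the named genes of the difference at -0.75, and Ly86 and Apba1 were named at 0.52 and 0.96. T cell genes were positive in 12 of 22 in CIN tumours with a median of 0.04, and 15 of 22 were larger in MSI tumours, 0 at an unadjusted p under 0.05. With all libraries, interferon gamma genes did not differ in this way. They were positive in 23 of 25 in CIN tumours, and their median was 0.24 in both tumour types. The difference was positive for 12 of the 25, with a median of -0.003. Without CIN micronuclei 1 of the MSI tumours their median in MSI tumours was 0.10. The difference was then positive for 8 of the 25, with a median of -0.15. MHC class I genes were positive in 20 of 21 in both, with a median of 0.08 in CIN tumours and 0.18 in MSI tumours. Their difference was positive for 17 of the 21, and for 12 without that library, at a median of 0.008.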

How the data were processed

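The data were gene counts of tumour RNA, sequenced after poly-A selection. The authors deposited whole-number counts per gene. The submitters' processing notes list fastp, HISAT2 2.0.5 and featureCounts 1.5.0-p3 with build GRCm39, but 53499 of the 54409 identifiers in common with GENCODE M21 have the same positions there, so coordinates are given as GRCm38. The labels mention kits of both kinds, stranded and unstranded, and the strand setting is not stated in what was used here, so reads of genes that overlap on the 2 strands are uncertain. The authors also deposited FPKM values, which were not tested. Of the deposited columns, 4 matched no sample and were not used.

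From the counts, edgeR 4.0.16 in R 4.3.3 was run on the 8 MSI tumour libraries with TMM scaling, filterByExpr, and terms for DNA form, DNA source and replicate number. Quasi-likelihood fits were robust, and p-values were Benjamini-Hochberg adjusted over all genes, with a threshold of 0.05. The fit left 4 residual degrees of freedom, with a common biological coefficient of variation of 0.249, and the spread between libraries limits the precision more than counting does. The contrasts within a source and their difference came from 1 mean per group with the replicate number. The form effect in CIN tumours and the difference between tumour types came from all 16 libraries with source, form and replicate terms within each tumour type. CPM use the TMM factors, list levels are means of log2 CPM with a prior count of 2, and SE is that of the log2 fold change. DESeq2 1.42.0 was an alternative, as were other filters, scalings, terms and sets of libraries. The scripts were tested on simulated counts.

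Deviations from the group means of libraries with the same replicate number correlated at 0.438 to 0.827 in all 6 pairs of groups, so the numbers, which the labels give, were taken to pair the libraries. Libraries of 1 group differed beyond counting noise (chi-square per degree of freedom of 30.6 to 227) and were kept as separate samples. Total counts, genes detected and the mitochondrial share were compared between free DNA and micronuclei libraries by exact permutation tests, both tails, over 70 arrangements (p = 1, 0.629 and 1, where 0.0286 is the smallest they can give).

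The 32 gene lists and the compared libraries were chosen with earlier results of these data known. Lists are described by counts and medians, and counts at a threshold are read against the share of all genes past it. Named genes were the 12 higher and 12 lower described in the text, the most abundant members of each list, a fixed set of DNA sensing, interferon and immune genes, and the leading genes of the other contrasts. Not all of them are given with values. Other list members given with values, among them Mx2, Ifi44, Zbp1, Ifih1, H2-Q7, Psme2, Cd80, H2-Oa, Cxcl3, Ly6c2, Itgax and Epcam, were outside these rules. Such members do not stand for their lists. One member of the type I interferon list is counted with its list but not reported by itself here.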

Additional observations from a re-analysis of the deposited data

Results flagged for a closer look

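Each of 192 groups of 4 libraries (a gene's CPM, a list's mean log2 CPM or a library measure in free DNA or in micronuclei libraries) was examined for 1 library far from the other 3, and 9 (4.69%) held one, where chance gives about 1 in 20.

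In the micronuclei libraries, Cmpk2 was highest in CIN micronuclei 2, at 29.3 CPM. MSI micronuclei 2 was far below the other micronuclei libraries for Gbp3 (107 CPM), Cxcl9 (222 CPM) and Iigp1 (225 CPM), and for the mean of the cytotoxic and NK cell list (1.79 log2 CPM). CIN micronuclei 1 was far above the others for the skeletal muscle list (4.99 log2 CPM) and below them for the p53 target list (4.86 log2 CPM). In the free DNA libraries, CIN free DNA 2 lay below the other 3 for the fibroblast and matrix list (6.35 log2 CPM), and MSI free DNA 1 had fewer counts than they had, 13263948. What sets these libraries apart was not tested.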

How the results depend on the processing

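With DNA form, DNA source and replicate number as terms, edgeR's quasi-likelihood test called 0 genes between free DNA and micronuclei after Benjamini-Hochberg adjustment, and 204 genes lay under 0.05 before adjustment; for DESeq2 these numbers were 0 and 207. With no filter on low counts edgeR called 1 gene, Myh4. In replicate 1 libraries alone, where 1 residual degree of freedom was left, it called 10, with 565 at an unadjusted p under 0.05, and in replicate 2 libraries alone 0, with 233. The replicate numbers pair the libraries, and without the replicate block the 204 genes became 84 (126 over all 16 libraries with 1 mean per group and no replicate block) and the 24 type I interferon genes at that p became 17 and 11. Each library left out in turn gave 0 calls after adjustment, 82 (without MSI free DNA 1) to 718 (without CIN micronuclei 2) genes at an unadjusted p under 0.05, with 322 without MSI micronuclei 1 and 355 without MSI micronuclei 2, and 12 to 29 type I interferon genes at that p. List medians (log2, free DNA over micronuclei) then ran from 0.25 to 0.51 for type I interferon, 0.10 to 0.39 for interferon gamma, 0.10 to 0.30 for MHC class I, 0.14 to 0.41 for T cells, 0.14 to 0.43 for CC chemokines and -0.0022 to 0.29 for neutrophil attractants and cytokines. A colon epithelium score in place of the replicate number gave 384 genes, and 14 type I interferon genes passed both with the skeletal muscle score as a further term and without the CIN DNA replicate 1 pair, alternatives for the lists that were chosen after seeing the data. For the narrower contrasts edgeR called 0 genes and DESeq2 called 1 with MSI DNA (Myh1), 2 with CIN DNA and 2 in the difference between sources (Rpl17-ps10 and Myh1 in each), and 4 in the difference between tumour types (Socs3, Myh4, Pvalb and Csrp3); the genes at an unadjusted p under 0.05 numbered 266, 132, 258 and 211 with the replicate block and 68, 62, 68 and 140 with no replicate block, the last being 432 under DESeq2. Without CIN micronuclei 1, also chosen after seeing the data, edgeR called 0 genes in each of these contrasts, with 476 at an unadjusted p under 0.05 with CIN DNA and 805 in the difference between sources. Among the values of named genes under the alternatives, 1299 kept their direction and their side of the threshold and 39 changed sign. This tally includes the 12 higher and 12 lower genes chosen for 1 direction in all 4 pairs, whose sign the choice largely fixed. With all 8 libraries the lowest adjusted p in edgeR was 0.9999, so keeping the side of the threshold says little. The tally is therefore no measure of robustness. With 1 library left out, Ifit1bl1 ran from -0.18 to 0.81, Mb21d1 from -0.23 to 0.041, Tbk1 from -0.027 to 0.047, Irf3 from -0.074 to 0.045, Cd3e from -0.16 to 0.22, Prf1 from -0.49 to 0.27 and Cxcl2 from -0.70 to 0.29. In replicate 2 libraries alone Gbp2 (-0.094), Gbp4 (-0.19), Gbp7 (-0.28), Mx1 (-0.15), Tbk1 (-0.059) and Prf1 (0.13) changed sign, and in replicate 1 libraries alone Mb21d1 (0.032) and Cd3e (-0.45). Cd3e also changed sign with no replicate block (-0.017), with form and replicate number only (-0.011) and over all 16 libraries with (-0.011) and without (-0.041) the block. Tbk1 did so over all 16 libraries with (-0.0040) and without (-0.0051) the block, with the colon epithelium score (-0.0086) and without the CIN DNA replicate 1 pair (-0.0046), Gbp7 without that pair (-0.0059), and Ifit1bl1 with the skeletal muscle score (-0.042). The cause of each change was not tested. Depth limits the genes near the filter on low counts most, since they rest on few counts per library.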
